A study of Homo sapiens with 4 samples.

Results

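The chemokines and chemokine receptors expressed by TK6 cells, a human lymphoblastoid cell line, were compared between simulated microgravity and static culture. The group held every gene symbol in the table made of CCL, CXCL, CCR or CXCR followed by a number, which were 15 of the 11415 genes listed, 7 ligands and 8 receptors. Cells of both conditions were seeded at 200000 cells per ml and kept for 48 hours in High Aspect Ratio Vessels. In simulated microgravity the vessel turned at 12 rpm (2 libraries) and in static control it did not turn (2 libraries), and the labels name no other agent or allele in either condition. The model is therefore a single cell line in a rotating vessel on the ground. Whether the 2 libraries of each condition were made from separate cultures is not given in the sources used here, so the p-values measure the spread between these libraries, which may be technical.

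Chemokines are small secreted proteins that attract white blood cells along a gradient, and their receptors are membrane proteins that signal through inhibitory G proteins. In B cells, CCR7 and CXCR4 guide cells within lymph nodes and bone marrow, and activated B cells secrete ligands such as CCL3, CCL4 and CCL22 that draw T cells and other partners. The family name gives the spacing of the cysteines at the start of the ligand, CC or CXC, and an R marks the receptor.

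Counts over 1 record per gene ranged from 57481510 to 64497288 per library, and the values below are CPM, read counts scaled to the size of the library and by TMM, edgeR's trimmed-mean factor, which ranged from 0.994 to 1.01. On the first principal component of log2 CPM, with 50.2% of the variance, simulated microgravity replicate 2 (-13.1) stood apart from simulated microgravity replicate 1 (-1.31) as well as from static control replicate 2 (3.48) and replicate 1 (11.0). Results of members that rest on simulated microgravity replicate 2 are therefore given with and without it. The static libraries also lay apart on this component. The nearest libraries of the 2 conditions (-1.31 and 3.48) were closer together than the libraries within either condition. The study's introduction gives the line a T cell origin. Of 10 markers of T cells none was listed, while 8 of 10 markers of B cells were, with a summed level of 2047 to 2144 CPM in simulated microgravity and 1937 to 1938 CPM in static control. The higher sum was that of MS4A1, and 7 of the 8 markers had a negative log2 fold change (median -0.044).

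Of 58 family symbols looked for, 14 were listed, and the 15th gene, CXCR7, is the older symbol of the atypical receptor ACKR3. The other 44 were not analysed here, among them CCR4, the receptor of CCL22, and the B cell follicle pair CXCR5 and CXCL13. The table lists a record only if its CPM as deposited exceeds 1 in at least 1 library. On that scale the member record nearest to the limit reached 1.51 CPM. The deposited CPM rest on library totals of 112789026 to 126548663, so the CPM given in this text are higher for the same reads. All 15 genes passed the filter on low counts.

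The sequence just upstream of the transcript start is shown for CCL22, the single member that changed, and for CXCL10, the member with the largest positive difference over all 4 libraries, which was 0.45 on the log2 scale and 0.066 without simulated microgravity replicate 2. Both were read from the hg19 genome as the 250 bases before the start of the record, on the strand of the gene, and the capitals mark matches to the NF-kB (kappa B) consensus on either strand. CCL22 lies on the plus strand of chromosome 16 and the stretch is chr16:57392445-57392694. CXCL10 lies on the minus strand of chromosome 4 and the stretch is chr4:76944690-76944939.
CCL22: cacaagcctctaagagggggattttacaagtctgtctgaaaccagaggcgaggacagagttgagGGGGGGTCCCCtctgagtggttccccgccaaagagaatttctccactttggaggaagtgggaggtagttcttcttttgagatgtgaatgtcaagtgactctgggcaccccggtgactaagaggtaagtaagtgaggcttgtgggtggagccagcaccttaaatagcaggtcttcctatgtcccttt
CXCL10: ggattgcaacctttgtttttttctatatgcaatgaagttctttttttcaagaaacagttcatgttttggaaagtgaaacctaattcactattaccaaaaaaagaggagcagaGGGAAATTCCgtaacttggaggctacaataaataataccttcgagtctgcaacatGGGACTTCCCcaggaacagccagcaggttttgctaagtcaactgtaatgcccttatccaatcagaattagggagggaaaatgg
In CCL22 a pair of overlapping matches lies 186 to 176 bases before the start. In CXCL10 one match lies 138 to 129 bases and the other 83 to 74 bases before it.

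The consensus was present in this window in 7 of the 15 members (CCL22, CCL20, CCL5, CCL2, CXCL10, CCR9 and CXCR7), against 11.2% of the 11406 genes with a sequence. The TATA box letters TATAAA were in 5 members, the ligands CCL20, CCL5, CCL4 and CCL3 and the receptor CXCR4, against 5.97% of all genes. A STAT6 motif, TTC and GAA separated by any 4 bases, was in 1 member, CXCR6, against 4.34%, and the hypoxia response core ACGTG was in 0 members, against 22.1%. Each motif was searched on both strands. The members with the kappa B letters had no common direction, since CCL22 and CCR9 had lower and CCL2 and CXCL10 higher CPM in both simulated microgravity libraries.

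CCL22, the macrophage-derived chemokine that attracts T helper 2 and regulatory T cells through CCR4, fell in simulated microgravity. Its CPM was 9.90 and 9.16 in simulated microgravity replicates 1 and 2 and 15.1 and 16.5 in static control replicates 1 and 2, from 576, 587, 920 and 1023 reads. Every static value lay above every simulated microgravity value, and the gap between conditions was wider than the gap within either. The level was 1.66-fold lower in simulated microgravity, with a 95% interval of 1.43 to 1.93. CCL22 had the 6th smallest p among the 11415 genes and was 27th by size of difference among the 99 genes that fell. In bulk RNA, fewer cells expressing a gene and less RNA per cell cannot be told apart. An exact permutation test of 2 libraries against 2 cannot give a p below 0.333, so single genes were read from edgeR's fit over all genes.

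Of the 15 alternatives run, 11 kept all 4 libraries, and the call for CCL22 held in each of these. Its log2 fold change there was -0.73 to -0.72, with an edgeR, DESeq2 or limma-voom adjusted p of at most 0.0393. Not all of them were separate checks. The filter on low CPM and the FDR under 0.05 reused the main fit, and the choice of record left the counts of CCL22 unchanged. In the main fit the edgeR adjusted p of CCL22 was 0.00252. With a library left out its log2 fold change was between -0.79 and -0.67. It was -0.67 without simulated microgravity replicate 2 and -0.79 without simulated microgravity replicate 1. These last fits assume that the lone remaining simulated microgravity library varies like the static ones. CCL22 is also made by dendritic and myeloid cells. Of 8 dendritic cell markers 2 were listed (ITGAX and IL3RA), with a summed level of 25.3 to 33.7 CPM in simulated microgravity and 30.3 to 35.0 CPM in static control. Of 10 myeloid markers 2 were listed (ITGAM and S100A9), at 22.1 to 22.3 CPM and 20.0 to 21.8 CPM in the same order, and the defining markers CD1C, CLEC9A, CD14 and CSF1R were not among those listed. Each sum joined 2 markers with log2 fold changes of opposite sign, none of which passed edgeR's test. These were -0.27 for ITGAX, 0.19 for IL3RA, -0.13 for ITGAM and 0.13 for S100A9. The part of these markers in the result was not tested.

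The 3 genes outside the family whose centred log2 CPM over the 4 libraries lay nearest to that of CCL22 were HIC1, CD101 and LHFPL3, at a root mean square distance of 0.0377, 0.0562 and 0.0621. LHFPL3 fell by 0.62 on the log2 scale (SE 0.12, edgeR adjusted p = 0.0204), from 7.84 and 8.14 CPM in static control to 5.43 and 4.99 CPM. HIC1, a transcriptional repressor, had a log2 fold change of -0.77 and CD101, an immunoglobulin-family surface protein, one of -0.68, and neither passed (edgeR adjusted p = 0.137 and 0.153). HIC1 had only 71 to 134 reads and CD101 91 to 149 reads per library.

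CCL22 was 1 of the 15 members past an FDR of 0.1 in edgeR's quasi-likelihood test (6.67%), against 1.1% of all genes in either direction and 0.867% in the lower direction. No member rose, against 0.237% of all genes. An unadjusted p under 0.05 was reached by 6 of 15 members (40.0%), against 8.08% of all genes: CCL22, CCL3, CCL2, CXCL10, CXCR4 and CCR9. The CPM did not overlap between conditions in 9 of 15 members (60.0%), against 35.9% of all genes. Of these, 5 were lower in simulated microgravity (18.1% of all genes) and 4 were higher (17.9% of all genes). The median log2 fold change was -0.039 over the members and 0.00067 over all genes, with 10 members negative and 5 positive.

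**Figure D1:**
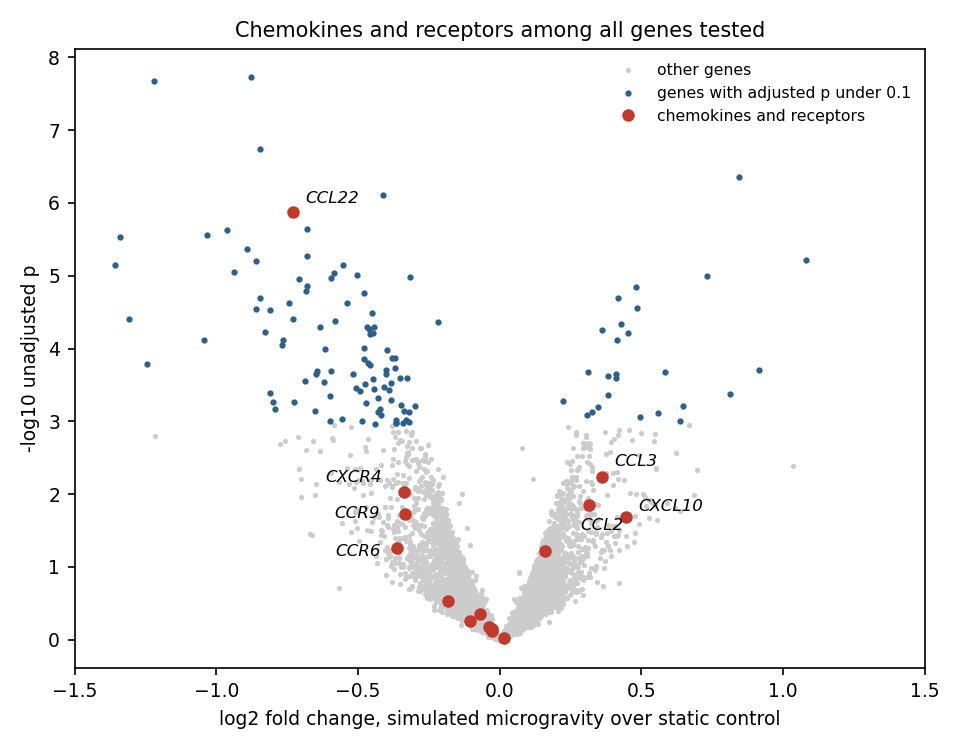
Each point is 1 of the 11415 genes, with the fitted log2 fold change (simulated microgravity against static) on the x axis and the -log10 of edgeR's unadjusted p on the y axis. Blue points have an adjusted p under 0.1, red points are the 15 chemokine and receptor genes, and 3 genes beyond 1.5 on the x axis are left out. CCL22 is the red point at -0.73, and the other red points lie between -0.36 and 0.45.

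The other 6 ligands did not pass the test, and 3 of them had higher CPM in both simulated microgravity libraries (17.9% of all genes). CCL3, an inflammatory chemokine that acts on CCR1, was at 42.2 and 59.3 CPM in simulated microgravity and 39.1 and 40.1 CPM in static control. The static values were almost equal, and simulated microgravity replicate 2 stood well above the rest. The log2 fold change of CCL3 was 0.36 (SE 0.11, 95% interval 0.12 to 0.60, edgeR adjusted p = 0.260). CXCL10, the interferon-induced ligand of CXCR3, was at 4.74 and 7.57 CPM against 4.32 and 4.74 CPM. Its simulated microgravity replicate 1 was level with static control replicate 2, so the separation was in replicate 2 alone. CXCL10 had a log2 fold change of 0.45 (SE 0.18, 95% interval 0.08 to 0.81, edgeR adjusted p = 0.450). CCL2, which attracts monocytes through CCR2, was at 11.0 and 12.7 CPM against 10.3 and 8.80 CPM. The groups did not overlap, but static control replicate 1 was close to simulated microgravity replicate 1, and the log2 fold change was 0.31 (SE 0.12, 95% interval 0.07 to 0.56, edgeR adjusted p = 0.391).

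For CCL5, CCL20 and CCL4 the conditions overlapped. CCL5, a ligand of CCR1 also known as RANTES, was at 77.8 and 84.4 CPM in simulated microgravity and 85.2 and 80.2 CPM in static control. Its 95% interval on the log2 scale was -0.19 to 0.13. CCL20, the ligand of CCR6, was at 21.4 and 21.9 CPM against 21.1 and 24.4 CPM, with an interval of -0.26 to 0.12. CCL4, an inflammatory chemokine released by activated lymphocytes, was at 2.96 and 5.13 CPM against 3.67 and 4.37 CPM. The simulated microgravity libraries of CCL4 lay on either side of the static ones, from 172 and 329 reads, and the interval of -0.41 to 0.44 was the widest among the ligands. CCL3 and CCL4 lie side by side on chromosome 17 and are often induced together, and both were higher in simulated microgravity replicate 2 than in replicate 1.

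**Figure D2:**
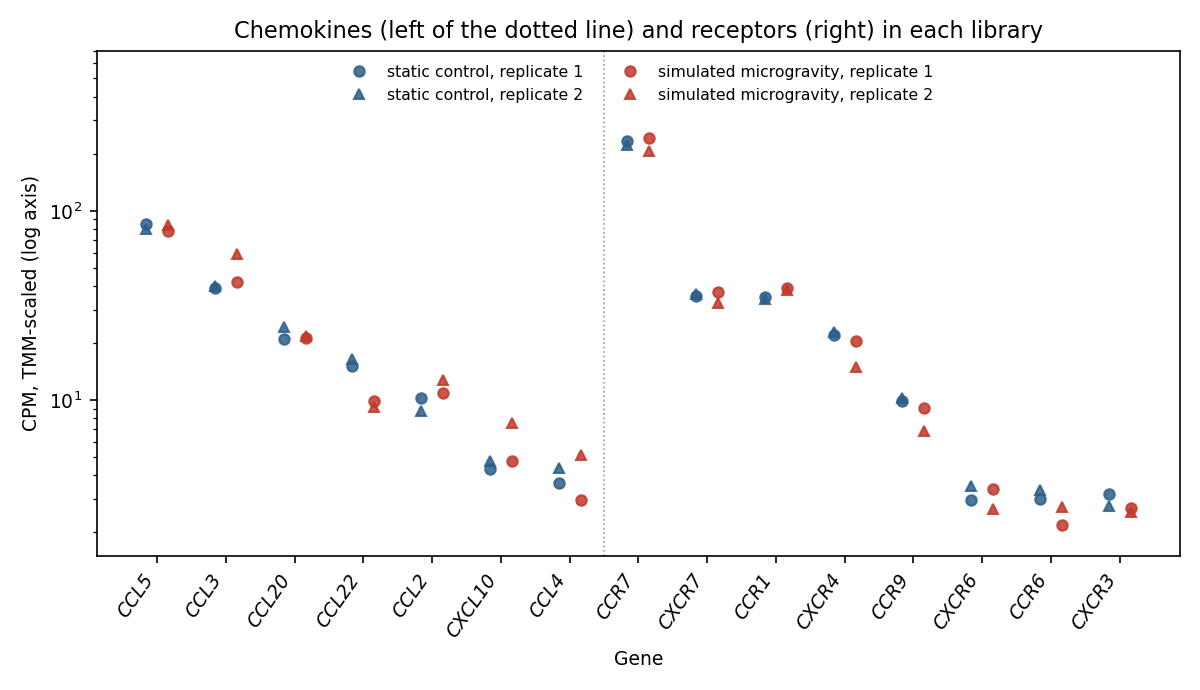
TMM-scaled CPM on a log axis for the 7 ligands and the 8 receptors, with 1 point per library, blue for static control and red for simulated microgravity, circles for replicate 1 and triangles for replicate 2. Both red points of CCL22 (9.90 and 9.16) lie below both blue points (15.1 and 16.5), while for CCL3, CXCL10, CXCR4 and CCR9 the red triangle is the point that stands away from the rest.

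None of the 8 receptors passed edgeR's test, 2 of them (CXCR4 and CCR9) had an unadjusted p under 0.05 (8.08% of all genes), and 7 of the 8 log2 fold changes were negative (median -0.14), against 5683 of 11415 over all genes. CXCR4, the receptor for CXCL12 that holds B cells in bone marrow, was at 20.6 and 14.9 CPM in simulated microgravity and 22.0 and 22.8 CPM in static control. CCR9, the gut-homing receptor for CCL25, was at 9.09 and 6.85 CPM against 9.86 and 10.2 CPM. Both had the same arrangement, with simulated microgravity replicate 1 just under the static libraries and replicate 2 well below them. The log2 fold change of CXCR4 was -0.34 (SE 0.12, 95% interval -0.58 to -0.09, edgeR adjusted p = 0.318). That of CCR9 was -0.34 (SE 0.13, 95% interval -0.61 to -0.06, edgeR adjusted p = 0.431). CCR6, the receptor for CCL20, was at 2.20 and 2.73 CPM against 3.01 and 3.34 CPM, from 128 to 207 reads per library. Here replicate 1 was the lower simulated microgravity library, and the log2 fold change was -0.36 (SE 0.18, 95% interval -0.73 to 0.01, edgeR adjusted p = 0.641).

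CXCR3, the receptor for CXCL10, was at 2.68 and 2.57 CPM in simulated microgravity and 3.19 and 2.77 CPM in static control, without overlap but with an interval of -0.54 to 0.17 on the log2 scale. CXCR6, the receptor for the membrane-bound ligand CXCL16, was at 3.39 and 2.65 CPM against 2.96 and 3.51 CPM, and the conditions overlapped. CCR1, which binds CCL3 and CCL5, was the only receptor with higher CPM in both simulated microgravity libraries, 39.2 and 38.0 CPM against 34.8 and 34.2 CPM. Its libraries agreed closely within each condition, and the log2 fold change was 0.16 (SE 0.08, 95% interval -0.01 to 0.33, edgeR adjusted p = 0.660). CCR7, which guides B cells towards the T cell zone, was at 242 and 206 CPM against 233 and 224 CPM, with both static libraries inside the range of the simulated microgravity ones. CXCR7, which takes up CXCL12 without G protein signalling, was at 37.4 and 32.5 CPM against 35.3 and 36.5 CPM, also with both static values inside. The 95% interval on the log2 scale was -0.21 to 0.16 for CCR7 and -0.22 to 0.14 for CXCR7.

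**Figure D3:**
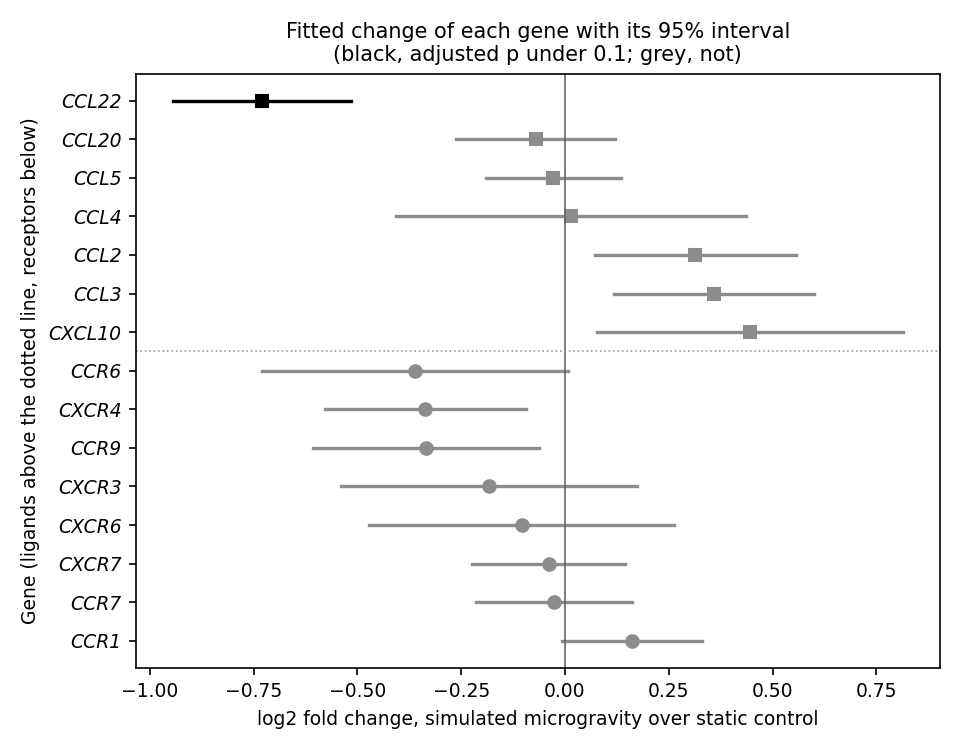
Fitted log2 fold change (simulated microgravity against static) on the x axis for each gene on the y axis, ligands as squares above the dotted line and receptors as circles below it, with 95% intervals from edgeR's fit as bars. CCL22 (black, -0.73) is the gene past the threshold, and the intervals of CCL2, CCL3, CXCL10, CXCR4 and CCR9 also leave out 0 while their adjusted p does not pass.

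The spread between the simulated microgravity libraries took a different form in ligands and receptors, which is a description of 2 libraries without a test. Ligands were higher in replicate 2 than in replicate 1 in 6 of 7 genes, CCL22 being the exception, and receptors were lower in 7 of 8, CCR6 being the exception. Among all genes 48.3% were higher and 51.7% lower in replicate 2. The log2 ratio of replicate 2 over replicate 1 was 0.80 for CCL4, 0.67 for CXCL10 and 0.49 for CCL3, sizes that lay at the 99.6, 99.4 and 98.2 percentile of all genes. It was -0.46 for CXCR4, -0.41 for CCR9 and -0.35 for CXCR6, at the 97.8, 96.8 and 94.9 percentile. The median size over all genes was 0.10. CCL20 (0.039), CCR1 (-0.044) and CXCR3 (-0.059) lay below that size, so the counts include genes with little difference. The static libraries had no such division, with replicate 2 higher in 5 of 7 ligands and 5 of 8 receptors. For CXCR4, CCR9, CCL3 and CXCL10 the static libraries differed by only 0.049, 0.052, 0.036 and 0.13 on the same scale. For CCL4 and CXCR6 the static libraries also differed widely, by 0.25 in each gene, at the 94.2 and 93.8 percentile of all genes. For CCL2 the log2 ratio was -0.22 in static control, at the 91.8 percentile, and 0.22 in simulated microgravity, at the 82.3 percentile.

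For 5 of the 6 genes with an unadjusted p under 0.05, the result depended on which simulated microgravity library was kept. Without simulated microgravity replicate 1, with its lone remaining library assumed to vary like the static ones, 6 of 15 members passed (40.0%), against 7.68% of all genes. The log2 fold changes were then -0.79 for CCL22, -0.58 for CXCR4, -0.55 for CCR9, 0.42 for CCL2, 0.58 for CCL3 and 0.74 for CXCL10. Without simulated microgravity replicate 2 they were -0.67, -0.12, -0.14, 0.20, 0.093 and 0.066 in the same order, and CCL22 was the only member to pass, against 1.86% of all genes. The edgeR adjusted p in the first case was 2.03e-06 for CXCR4, 0.00274 for CCR9, 0.0156 for CCL2, 6.43e-08 for CCL3 and 0.000109 for CXCL10, and in the second it was at least 0.714 for all 5. Among these 6 genes, CCL22 was the one that passed with either simulated microgravity library alone.

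**Figure D4:**
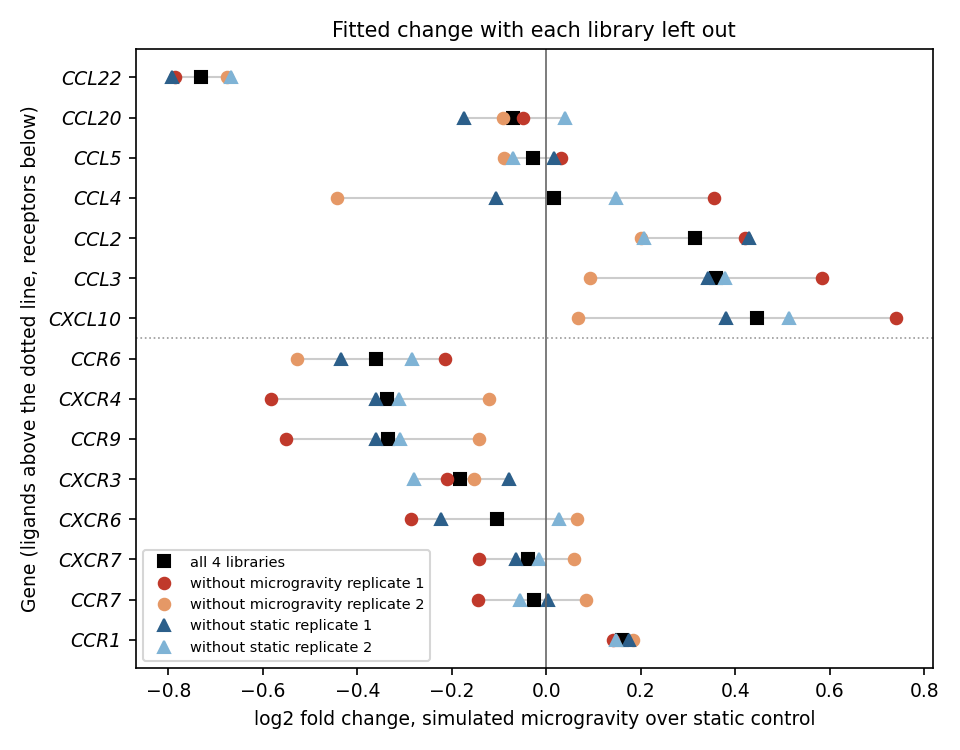
Fitted log2 fold change of each gene (x axis) with all 4 libraries (black squares) and with each library left out in turn (coloured points), ligands above the dotted line and receptors below. The points of CCL22 stay between -0.79 and -0.67, while those of CXCL10 run from 0.066 to 0.74 and those of CXCR4 from -0.58 to -0.12, with the ends set by the simulated microgravity libraries.

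Levels were compared between genes as CPM per kilobase of the GENCODE canonical transcript, an approximation of the length of the record. The places of CCL3 and CCL4 among the genes are uncertain, since reads with several mappings were removed and both have near-identical copies. CCR7 was the most abundant member at 104 CPM per kb (mean of 4 libraries). CCL5 (63.0) and CCL3 (57.9) followed and their ranges over the libraries overlapped, so their order was not resolved, and CCL20 (26.6) was below both. CXCR7 (17.6), CCL2 (14.4), CCR1 (13.8) and CXCR4 (12.0) formed a run in which each gene overlapped the next. A further overlapping run held CCL4 (6.11), CXCL10 (4.55), CCL22 (4.34) and CCR9 (3.56). CXCR3 (1.74) and CXCR6 (1.59) overlapped, and CCR6 (0.899) was the lowest. On this per-length scale CCL22 was at 5.42 in static control and 3.27 in simulated microgravity, and it ranked 10 and 11 of the 15 in the 2 conditions.

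The table thus held several ligands together with a receptor that binds them. CCL3 and CCL5 were listed with CCR1, CCL20 with CCR6 and CXCL10 with CXCR3, while for CCL22 the receptor CCR4 was not analysed here. No gene of these pairs passed the test. In the pair CCL20 and CCR6 the log2 fold changes were -0.071 and -0.36, in CXCL10 and CXCR3 they were 0.45 and -0.18, and for CCR1 the value was 0.16 beside 0.36 for CCL3 and -0.028 for CCL5.

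The 15 genes were represented by 21 records, and 5 genes (CCL20, CCR6, CCR9, CXCR3 and CXCR4) had more than 1. Records of a gene share reads and are not replicates, and their values were alike, as for the 3 records of CCR9 (-0.34, -0.31 and -0.33) and the pair of CXCR4 (-0.34 and -0.36). Fitted over all 22375 records, 1 member record passed, that of CCL22 (edgeR adjusted p = 0.000551), against 1.32% of all records. CCL22 (NM_002990) spans bases 57392695 to 57400102 of chromosome 16 in 3 exons, without an exon of another annotated gene. CCL3 shares 1115 exonic bases with the antisense RNA CCL3-AS1, and CCR6 shares 3005 with an overlapping gene model on the same strand. Strand use in the counting is not stated in the sources used here, so reads of CCL3 and its antisense partner cannot be told apart. CCL3 and CCL4 also have near-identical copies (CCL3L1, CCL3L3, CCL4L1 and CCL4L2), and as reads with several mappings were removed their levels are uncertain.

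Among genes that act with chemokines and their receptors, PTGER4 alone passed edgeR's test. Its call held in 8 of the 11 alternatives that kept all 4 libraries. Of 155 genes in 7 lists 114 were measured, of which 1 rose and 0 fell in edgeR's test. That count is near the 1.1% of all genes called in either direction. An unadjusted p under 0.05 was reached by 13 of the 114, against 8.08% of all genes. The median log2 fold change over these lists was 0.0012. PTGER4, the prostaglandin E2 receptor EP4, was at 4.68 and 6.05 CPM in simulated microgravity and 3.45 and 3.42 CPM in static control. Its log2 fold change was 0.65 (SE 0.16, edgeR adjusted p = 0.0698). The call did not hold at an FDR under 0.05, and it was lost with DESeq2 (0.65, adjusted p = 0.164) and without static control replicate 1 (0.65, edgeR adjusted p = 0.264) or replicate 2 (0.64, edgeR adjusted p = 0.156), at a difference of about the same size. Without simulated microgravity replicate 2 the difference was 0.44 (edgeR adjusted p = 0.292). It was 1 of 16 measured receptors and adhesion molecules that position B cells. The integrin chain ITGB2 was at 82.6 and 77.8 CPM against 95.3 and 86.8 CPM.

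In the chemokine signalling lists, 0 of 20 G proteins, kinases, arrestins and RGS proteins and 0 of 32 migration effectors passed edgeR's test. In each list 2 had an unadjusted p under 0.05, against 8.08% of all genes. PIK3R6 and PIK3R5, the regulatory subunits of the phosphoinositide 3-kinase that chemokine receptors activate, were both lower in simulated microgravity. PIK3R6 was at 1.79 and 0.515 CPM against 2.81 and 2.47 CPM, from 104, 33, 171 and 153 reads in the same order. Its 33 reads were the lowest count of any record in simulated microgravity replicate 2. The log2 fold change of PIK3R6 was -1.22 (SE 0.33, edgeR adjusted p = 0.125). PIK3R5 was at 57.3 and 43.9 CPM against 64.1 and 60.4 CPM, with a log2 fold change of -0.30 (SE 0.10, edgeR adjusted p = 0.302). In both, simulated microgravity replicate 2 was the lowest library, as it was for CXCR4 and CCR9. Without that library the log2 fold change was -0.56 for PIK3R6 and -0.12 for PIK3R5, and without simulated microgravity replicate 1 it was -2.35 and -0.50. With all 4 libraries kept PIK3R6 passed in 4 of 11 alternatives, among them edgeR's exact test (adjusted p = 0.0136) and limma-voom (adjusted p = 0.0489). It did not pass with DESeq2 (adjusted p = 0.999) or with edgeR's robust quasi-likelihood fit (adjusted p = 0.831). Among G protein genes, GNG10 (0.21), the receptor kinase GRK6 (0.16) and RGS13 (0.27), an inhibitor of G protein signalling in B cells, had the smallest p, and among the migration effectors the Rac exchange factor TIAM1 (0.30, and 0.14 without simulated microgravity replicate 2) came next.

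Of 10 further chemokines and chemokine-like genes none passed edgeR's test and 2 had an unadjusted p under 0.05 (8.08% of all genes). XCL1, a chemokine of the C class with a near-identical copy (XCL2), was at 2.91 and 3.42 CPM in simulated microgravity and 4.80 and 3.74 CPM in static control (log2 fold change -0.43, edgeR adjusted p = 0.431). CD74, the invariant chain and receptor of the cytokine MIF, had a log2 fold change of -0.15, and DDT, a homologue of MIF, one of -0.19. The 3 atypical or related receptors measured were GPR75 (-0.23), CCRL1 (-0.13) and CMKLR1 (0.11), none with an unadjusted p under 0.05. Of 19 transcription factors that act on chemokine genes in B cells none passed and 2 had an unadjusted p under 0.05 (8.08% of all genes). FOXO1, which drives lymphocyte homing genes, was at 8.65 and 7.22 CPM against 6.02 and 6.58 CPM, and the NF-kB subunit REL was at 15.2 and 16.9 CPM against 17.8 and 20.0 CPM. The log2 fold change was 0.33 for FOXO1, -0.23 for REL and 0.13 for POU2AF1, a B cell coactivator. Of 14 enzymes and proteoglycans that process or hold chemokines none passed, with 0.23 for the syndecan SDC1, 0.23 for the tyrosine sulfotransferase TPST2 and 0.15 for the shedding protease ADAM17.

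Among the 8 B cell markers measured none passed edgeR's test and 1 had an unadjusted p under 0.05 (8.08% of all genes). MS4A1, which encodes CD20, was at 1240 and 1205 CPM in simulated microgravity and 1017 and 1051 CPM in static control, and its log2 fold change was 0.24 (edgeR adjusted p = 0.104). CD79A, CD79B, CD22, PAX5, BLNK and CD40 had log2 fold changes from -0.11 to -0.029. Of 6 fibroblast markers COL1A1 and of 5 epithelial markers KRT8 was listed, and of 6 erythroid markers none.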

How the data were processed

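The authors aligned reads to hg19 with TopHat (TopHat2 2.0.8 in the submitters' processing notes), discarded reads that mapped to several places, and used bamutils to count reads on known genes. The deposited counts of the authors are whole numbers per RefSeq record and library, without normalization. The CPM columns deposited by the authors divide these counts by the library total and were used only to learn which records the table lists. The authors' own fold change, mean log2 CPM, p and FDR columns hold their comparison and were not used.

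Where a symbol had several records, the one with the highest mean count was kept (11415 genes of 22375 records). Counts were fitted over all genes with edgeR 4.0.16 in R 4.3.3 (TMM, filterByExpr, which removed 0 genes, and the quasi-likelihood test) with Benjamini-Hochberg adjustment at an FDR under 0.1. The biological coefficient of variation was 6.77%. Libraries of a condition differed beyond counting noise (chi-square per degree of freedom 22.4 in simulated microgravity and 19.6 in static control). Alternatives were DESeq2 1.42.0, limma-voom (limma 3.58.1), edgeR's exact test, other scalings, filters, thresholds and records, a replicate block, each library left out, and a robust fit chosen after the data were seen. The script was tested on simulated data.

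The members and lists were chosen with earlier results of these data known. All members were named. From each other list the genes past the FDR, or else the 3 with the smallest p, were named, as were the B cell markers and the 3 genes nearest to CCL22. Listed markers of other cell types and chromosomal neighbours were named in addition. Some genes that the rule names are not reported here. Overlaps and lengths came from GENCODE on hg19.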

Additional observations from a re-analysis of the deposited data

How the results depend on the processing

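With 2 libraries per condition the precision rests on the spread shared across all genes, and the groups were too small for a test of single outlying libraries. CCL22 passed in all 11 alternatives that kept the 4 libraries. Among these, the filter on low CPM and the FDR under 0.05 reused the main fit for every gene. The 1 member called stayed 1 in the other alternatives and ranged from 1 to 6 with a library left out (6 without simulated microgravity replicate 1), and the 1 member record called became 2 with the exact test and 2 with the replicate block, and ranged from 1 to 9 with a library left out. Among the pathway genes the count of 1 became 2 with RLE factors, 2 with limma-voom, 3 with the exact test, 2 with the record listed first, 6 over all records, 0 with DESeq2, 0 with the replicate block, 0 at an FDR under 0.05, and ranged from 0 to 11 with a library left out. Over all genes the count of 126 became 296 over all records, 96 with the replicate block and 70 to 877 with a library left out, the ends being static control replicate 1 and simulated microgravity replicate 1 (212 without simulated microgravity replicate 2). Same-numbered libraries deviated from their group means with a correlation of 0.0802. Whether they were cultured or processed together is not given in the sources used here, and the correlation cannot decide it. With the replicate block the edgeR adjusted p was 0.0393 for CCL22 and 0.142 for PTGER4. No filter on low CPM removed a gene.

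Of 225 values of members under alternatives, 208 kept direction and side of the threshold, 5 passed only there and 12 changed sign. With a library left out the log2 fold change ranged from -0.29 to 0.065 for CXCR6, -0.17 to 0.040 for CCL20, -0.14 to 0.059 for CXCR7, -0.14 to 0.085 for CCR7, -0.088 to 0.032 for CCL5, -0.44 to 0.35 for CCL4, -0.39 to 0.090 for CCRL1 and -0.00045 to 0.23 for CMKLR1. CCL4 was also at -0.027 with limma-voom and -0.018 with the replicate block. The cause was not tested.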

Other observations

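The genes that lie next to the chemokine and receptor genes give further values. Within 150 kb of CCL22 on chromosome 16, 7 other genes were listed (RSPRY1, ARL2BP, CIAPIN1, COQ9, POLR2C, DOK4 and CCDC102A), with log2 fold changes from -0.10 for RSPRY1 to 0.13 for DOK4, and none passed edgeR's test. The difference at CCL22 was thus not seen in its listed neighbours. On chromosome 3, CCR9 lies within the span of LZTFL1 and CXCR6 within that of FYCO1, each on the opposite strand and without shared exons. LZTFL1, a protein of ciliary transport, had a log2 fold change of -0.24 (edgeR adjusted p = 0.311) beside -0.34 for CCR9, and FYCO1, an adaptor of vesicle transport, was at -0.00083 beside -0.10 for CXCR6. The nearby SLC6A20 (-0.33) and SACM1L (0.024) did not pass. On chromosome 17, around CCL5, CCL3 and CCL4, the log2 fold changes of AP2B1, TAF15 and RDM1 were 0.029, -0.044 and -0.077.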
